A study of Mus musculus with 18 samples.

Results

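Splicing factors and heterogeneous nuclear ribonucleoproteins (hnRNPs) were examined in the kidneys of CD1 mice, an outbred stock, raised in normal or low oxygen. The genes were taken by symbol (beginning Sf3a, Sf3b, Srsf, Sfrs, Hnrn, Hnrp, Snrp, Prpf or U2af) from probes annotated with 1 gene symbol, and a gene was kept when 9 or more of the 18 arrays gave it a value. This gave 51 genes on 80 probes, of 6231 genes and 16128 probes in all. A further gene by symbol, Sf3b4, had a value on 7 arrays and was left out; Srsf6 with 9 arrays and Snrpa1 with 10 lay just inside the minimum. By family there were 1 U2AF-related gene, 7 genes of the SF3 complex, 9 snRNP proteins, 9 PRP factors, 8 SR proteins and 17 hnRNPs, and 24 of the 51 genes had a value on all 18 arrays.

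Litters were divided at postnatal day 2 into 9 groups that spent 1, 2 or 4 weeks in normoxia, in constant hypoxia at 11% oxygen, or in intermittent hypoxia that alternated between 21% and 11% oxygen every 4 minutes. The labels name no genetic change or drug in any group, and since all exposures began at the same age, duration and age cannot be told apart. Each group had 2 arrays, A and B, and each array was a competitive hybridisation of cDNA from 1 male (Cy5) and 1 female (Cy3) of the same group, with different animals on the 2 arrays and no dye swap. The value of a gene is therefore a log2 ratio between 2 animals of one condition: a response that is equal in both animals cancels, and a difference between conditions appears only where the ratio itself differed. No source used here gives the direction of the ratio, so signs are those of the deposited values and nothing is said about which sex was higher. Because the male was always in Cy5, sex and dye cannot be told apart in a mean ratio that differs from 0. Every value below is a log2 ratio centred on its array's median, in which 0 is the typical probe of that array. In whole kidney, fewer cells of a type and less RNA per cell cannot be told apart, and ratios give no level against which the tissue's defining markers could be checked.

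The spliceosome removes introns from pre-mRNA. Small nuclear RNAs wrapped in a ring of Sm proteins form the snRNPs that recognise the splice sites, U2AF and the SF3a and SF3b complexes place the U2 snRNP at the branch point, and PRP factors assemble and remodel the catalytic particle. SR proteins mostly promote the use of nearby exons, while hnRNPs coat the transcript and often oppose them, and the balance sets alternative splicing.

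Because the study concerned oxygen, the 250 bases before the RefSeq start (build GRCm38.p6) were searched for the core of the hypoxia-inducible factor element, spelled ACGTG or GCGTG, on both strands (CACGT or CACGC on the other strand, so that CACGTG counts on both). Of the 46 genes with a window, 32 (69.6%) held a core, against 60.4% of 5070 genes on the array. CCAAT was in 47.8% against 36.7%, TATAAA in 8.7% against 6.33% and GGGCGG in 58.7% against 62.2%, and the median GC content was 58.4% against 60.4%. The windows of 3 genes are shown, with the cores in capitals: Sf3b1 (chr1:55027479-55027728, minus strand), whose ratio was called in 2 conditions, Hnrnpa1 (chr15:103240147-103240396, plus strand), whose separate probes gave like values, and Prpf31 (chr7:3629735-3629984, plus strand), with the smallest p in constant hypoxia. A match is a description of the letters and not a binding site.
Sf3b1: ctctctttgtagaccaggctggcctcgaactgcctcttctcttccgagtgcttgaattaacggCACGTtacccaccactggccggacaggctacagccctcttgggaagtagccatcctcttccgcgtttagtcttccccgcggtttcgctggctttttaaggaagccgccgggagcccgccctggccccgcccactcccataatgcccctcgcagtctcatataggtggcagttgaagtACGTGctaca
Hnrnpa1: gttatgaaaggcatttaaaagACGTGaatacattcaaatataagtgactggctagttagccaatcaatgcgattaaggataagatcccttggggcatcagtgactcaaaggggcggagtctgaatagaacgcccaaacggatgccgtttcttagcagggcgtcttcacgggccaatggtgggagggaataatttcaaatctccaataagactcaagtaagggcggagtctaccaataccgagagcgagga
Prpf31: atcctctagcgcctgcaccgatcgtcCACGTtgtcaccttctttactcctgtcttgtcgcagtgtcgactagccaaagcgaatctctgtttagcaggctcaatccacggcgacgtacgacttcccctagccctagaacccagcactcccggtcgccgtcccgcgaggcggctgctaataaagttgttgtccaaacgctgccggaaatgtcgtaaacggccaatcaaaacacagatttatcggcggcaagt

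The arrays were not alike. Deposited medians lay between -1.17 and -0.15 on the constant hypoxia arrays, which carried a value for 81.8% to 88.8% of probes, and near 0 on the others, which carried 41% to 67.9%; a difference that involves constant hypoxia cannot be told apart from this other footing. The 2 arrays with the most uneven values along the probe numbers were constant hypoxia 4 weeks A (SD of the running median 0.78) and intermittent hypoxia 2 weeks B (0.61), against 0.12 to 0.40 on the rest. Labels contradict the title on 2 arrays. The female of intermittent hypoxia 2 weeks A carries a 1-week animal's name, and the treatment described for one channel of constant hypoxia 4 weeks A lasted 2 weeks. The correlation between arrays A and B of a group, over all features, ran from 0.21 to 0.65. Of the marker lists, 3 of 7 erythroid genes were measured and their mean ratio ran from -1.23 to 0.29 over the arrays, with -1.04 on constant hypoxia 4 weeks A; 4 of 9 tubule genes ran from -0.28 to 0.33, 2 of 6 immune genes from -1.13 on intermittent hypoxia 2 weeks A to 0.36, 2 of 4 endothelial genes from -0.32 to 0.37, and the podocyte gene Wt1, 1 of 4 listed, from -0.68 to 0.49. Of 5 adrenal and fat genes, Cyp11a1, an adrenal enzyme of steroid synthesis, was measured: in constant hypoxia it read 1.55 and 1.56 at 1 week, -2.32 and 1.53 at 2 weeks, and -2.53 and -1.71 at 4 weeks. The part of these in the ratios below was not tested.

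As a group, the genes lay close to the middle of their arrays, and none passed the test for a difference between conditions or ages. The median of the 51 genes' mean ratio in constant hypoxia was -0.042, against -0.0020 over all 9487 features, and that of 48 genes in normoxia was -0.080 against -0.011. In intermittent hypoxia, 45 genes had a median of -0.024 against -0.021. The median SD over a condition's arrays was 0.33 in normoxia, 0.26 in constant and 0.28 in intermittent hypoxia for these genes, and 0.31, 0.25 and 0.29 for all features. Of the SR proteins, 7 of 8 had a negative mean in constant hypoxia (median -0.22), 6 of 7 in intermittent hypoxia (median -0.083) and 5 of 7 in normoxia (median -0.19), against 50.3%, 53% and 51.6% of all features. With the running median of neighbouring probes subtracted, as described below, the SR counts were 4 of 8, 6 of 7 and 6 of 7, against 48.6%, 52.6% and 52.5%. The heat map of all 51 genes shows how far this holds array by array.

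**Figure D1:**
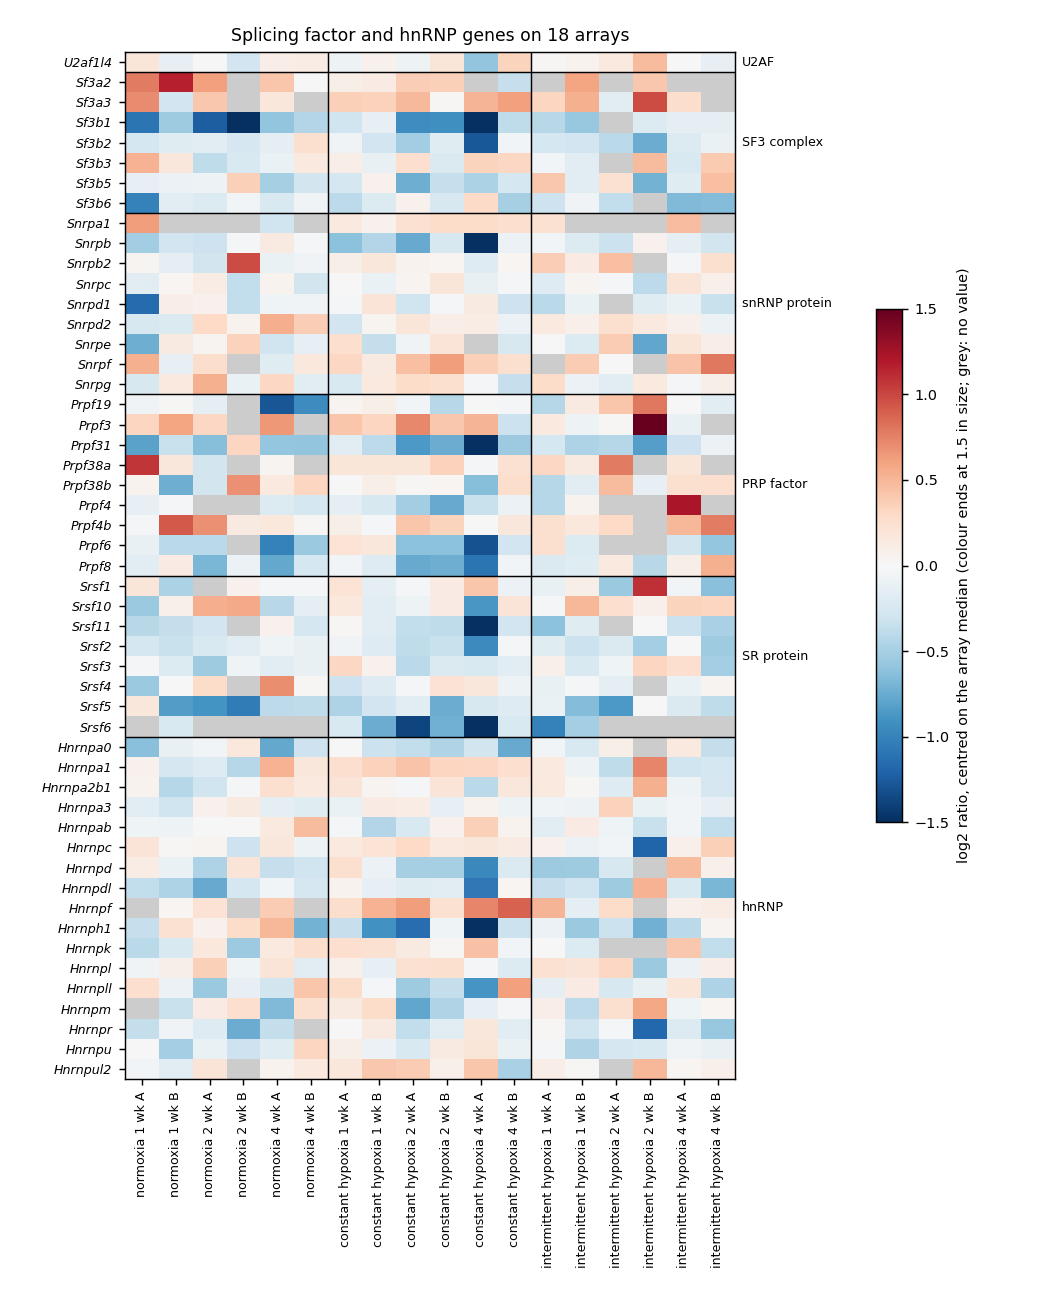
Centred log2 ratio of each of the 51 genes (rows, by family) on each of the 18 arrays (columns, by condition and weeks); colours end at 1.5 in size and grey marks no value. The darkest cells lie on constant hypoxia 4 weeks A, where 10 of 49 genes were below -1.

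In limma fits over all features (Benjamini-Hochberg adjusted p, threshold 0.05), a mean ratio different from 0 was called for 3 of 48 genes in normoxia, where 3.31% of 7520 features were called, for 9 of 51 in constant hypoxia, where 14% of 9487 were, and for 0 of 45 in intermittent hypoxia, where 7.6% of 6864 were. The 9 genes are 17.6% of those tested and the 3 genes 6.25%, so that both shares are near those of all features. By sign, 1 gene was called positive and 2 negative in normoxia (1.68% and 1.64% of features), 1 positive and 8 negative in constant hypoxia (3.58% and 10.4%), and 0 of either sign in intermittent hypoxia (4.91% and 2.7%). At an unadjusted p under 0.05 there were 11, 19 and 9 genes in the 3 conditions (22.9%, 37.3% and 20% of those tested), against 22.2%, 33.8% and 26.7% of all features. The counts hang on single arrays. An array left out leaves its partner alone in the group, so the difference between these 2 arrays no longer enters the spread. In constant hypoxia the 9 became 0 without 1 week B (0.268% of features) and without 2 weeks A or B (0.571% and 0.993%). They became 2 without 1 week A (4.37%), 5 without 4 weeks A (6.1%) and 17 without 4 weeks B (24%). In normoxia the 3 became between 0 and 6 with any one of the 18 arrays left out, the 6 (8.43% of features) without either constant hypoxia array of 4 weeks. In intermittent hypoxia the 0 became 4 without intermittent hypoxia 2 weeks A (20.6%) or without either constant hypoxia array of 4 weeks (12.5%), which enter through the shared estimate of the spread. Without both arrays whose labels disagree, 8 of 48 genes were called in normoxia (11.7% of features), 6 of 51 in constant hypoxia (8.77%) and 7 of 36 in intermittent hypoxia (27.7%). The 8 in normoxia were the 3 above with Prpf6, Prpf31, Prpf19, Prpf3 and Hnrnpdl, and the 6 in constant hypoxia were Sf3b1 at -0.51, Srsf6 at -0.59, Prpf31 at -0.54, Hnrnpa0 at -0.44, Snrpb at -0.37 and Hnrnpf at 0.57. Those in intermittent hypoxia were Hnrnpr, Sf3b2, Prpf31, Srsf2 and Hnrnpc below 0 and Sf3a3 and Prpf3 above it. In that fit, 2 weeks B, an array uneven along the probe numbers, stands alone for the 2-week group of intermittent hypoxia. It read -1.20 for Hnrnpc, -1.18 for Hnrnpr, -0.83 for Prpf31, -0.75 for Sf3b2 and -0.51 for Srsf2. For Prpf3 it read 1.56 and for Sf3a3 0.97.

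**Figure D2:**
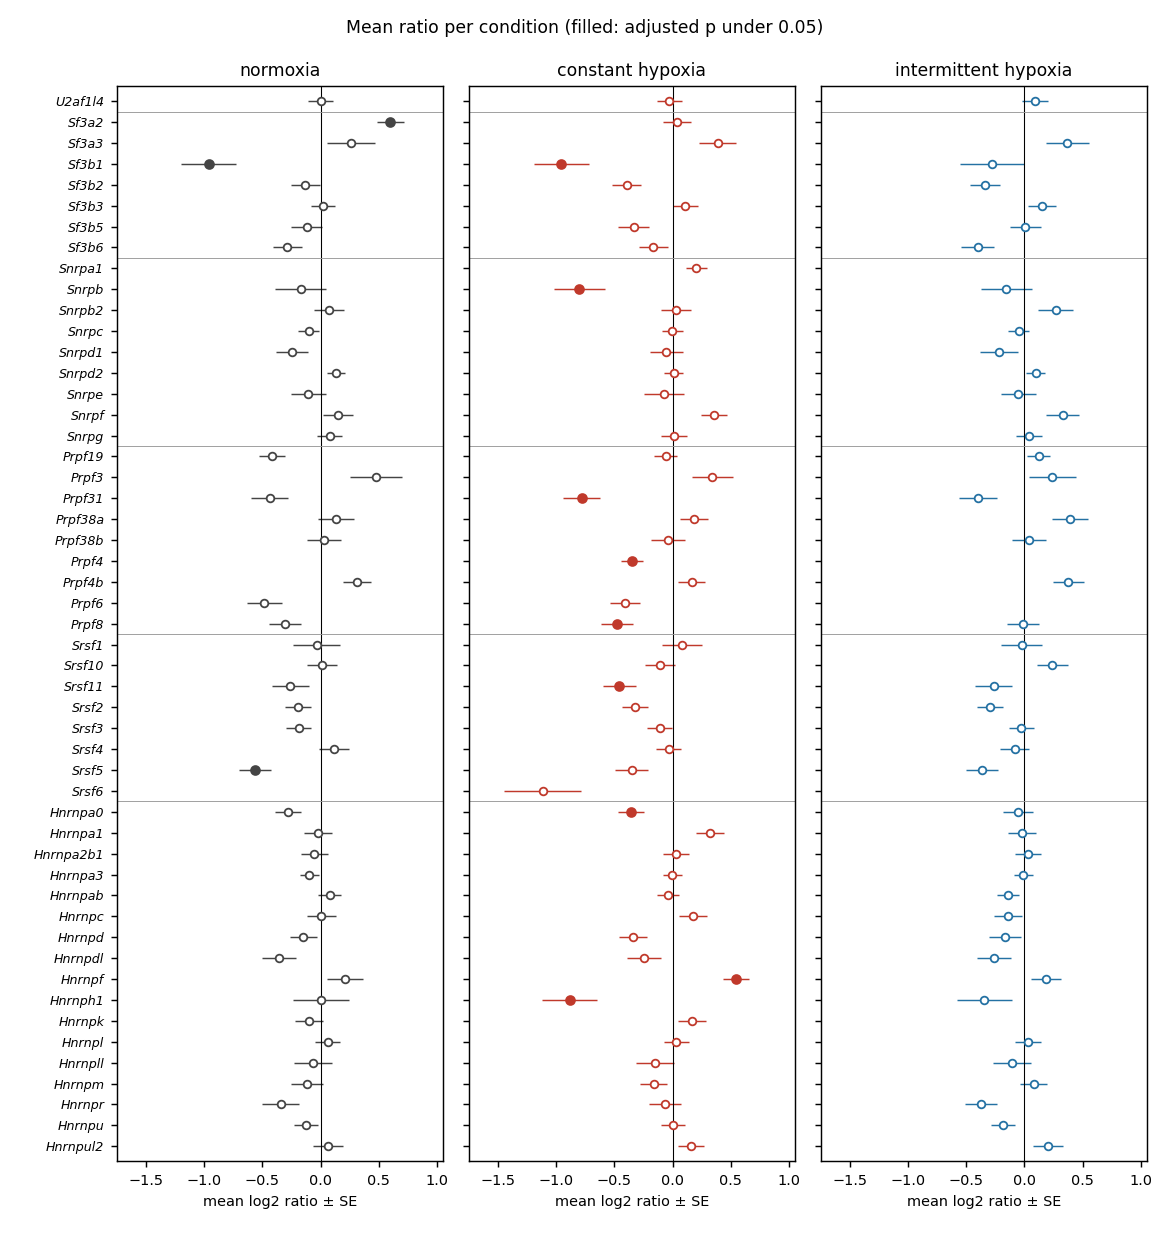
Mean log2 ratio ± SE of each gene in normoxia, constant hypoxia and intermittent hypoxia (equal weight to 1, 2 and 4 weeks; at most 6 arrays a condition), from the limma fit. Filled points passed an adjusted p of 0.05; Sf3b1 is filled in normoxia and in constant hypoxia, and a gene without an array in one of the durations has no point.

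Most of the large negative values in constant hypoxia sat at one end of the array's probe numbering. On constant hypoxia 4 weeks A, all probes numbered above 14000 had a median of -2.13 against 0.068 for the others, and the 17 probes of splicing genes above 14000 had a median of -2.24 against 0.14 for the other 60 probes. All 10 splicing genes below -1 on that array (20.4% of 49, against 15.2% of features) had a probe above 14000, as had 6 of the 9 genes called in constant hypoxia. Of the 51 genes, 17 had such a probe, and 3 of the 34 without one were called in constant hypoxia. Prpf31 shows the difference along the numbering within 1 gene: its probe numbered 14477 read -3.15 on that array and its probe numbered 2450 read -0.80. The same end of the numbering was lower on the other constant hypoxia arrays too, by smaller amounts, with medians from -0.75 to -0.082 for all probes above 14000. It was not particular to that condition: these medians ran from -0.40 to 0.057 in normoxia and from -0.22 to -0.041 in intermittent hypoxia. On constant hypoxia 4 weeks A the running median of neighbouring probes also dipped at lower numbers, to -1.58 at probe 12549. When the running median of the neighbouring probes (50 on each side) was subtracted, 0 of 51 genes were called in constant hypoxia (0.211% of features), and no gene's mean ratio there exceeded 0.27 in size. Means and differences of the genes described below are given with this trend removed as well.

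**Figure D3:**
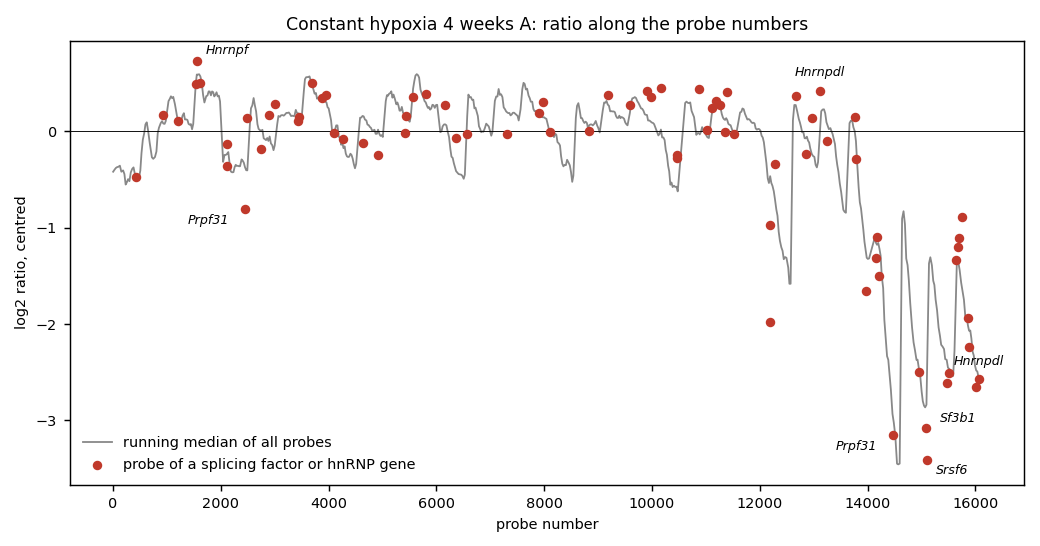
Centred log2 ratio on constant hypoxia 4 weeks A against probe number; points are the probes of splicing factor and hnRNP genes and the grey line is the running median of all probes. The 17 points above probe 14000 lie along the dips of the line, at a median of -2.24.

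The branch-point complexes held the gene with the most negative mean among those called. Sf3b1, the largest subunit of SF3b and the one that clamps the branch point, read -1.09 and -0.53 at 1 week, -1.23 and -1.89 at 2 weeks and -0.59 and -0.44 at 4 weeks in normoxia. In constant hypoxia it read -0.30 and -0.13 at 1 week, -0.93 and -0.91 at 2 weeks and -3.07 and -0.39 at 4 weeks. In intermittent hypoxia it read -0.41 and -0.57 at 1 week, -0.21 at 2 weeks (array B only) and -0.13 and -0.15 at 4 weeks. All 17 arrays with a value were negative, and the ranges of the 3 conditions overlapped. The mean ratio was -0.96 (SE 0.24, limma adjusted p = 0.0460) in normoxia and -0.96 (SE 0.24, adjusted p = 0.0247) in constant hypoxia. Its single probe is numbered 15082. With the trend removed, the constant hypoxia mean was -0.0048 (adjusted p = 0.994), while the normoxia mean was -0.53 and still called (adjusted p = 0.0270). What was left in normoxia came mostly from the 2-week arrays, at -0.81 and -1.76, with the other 4 between -0.42 and 0.051. Without constant hypoxia 4 weeks A the constant hypoxia mean was -0.51, and without 4 weeks B -1.40. The intermittent minus normoxia difference was 0.68 (SE 0.36, adjusted p = 0.983; 0.63 with the trend removed). The change from 1 to 4 weeks in constant hypoxia was -1.51 (SE 0.58, adjusted p = 0.503), which was -0.12 with the trend removed. It was -0.17 without 4 weeks A and -2.86 without 4 weeks B, where 4 weeks A stands alone in its group.

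Sf3a2, a subunit of SF3a, was the positive call of normoxia. Its normoxia ratios were 0.78 and 1.17 at 1 week, 0.61 at 2 weeks (array A only) and 0.42 and 0.0059 at 4 weeks, its constant hypoxia ratios 0.089 and 0.12 at 1 week, 0.37 and 0.35 at 2 weeks and -0.34 at 4 weeks (array B only), and its intermittent hypoxia ratios 0.59 at 1 week (array B only) and 0.41 at 2 weeks (array B only), with no value at 4 weeks. All 5 normoxia values were above 0, and the lowest of them, at 4 weeks, lay inside the constant hypoxia range. The normoxia mean was 0.60 (SE 0.12, limma adjusted p = 0.0328) and 0.41 with the trend removed (adjusted p = 0.0712). Constant hypoxia minus normoxia was -0.56 (SE 0.17, adjusted p = 0.523; -0.58 with the trend removed), and 4 weeks minus 1 week in normoxia was -0.76 (SE 0.25, adjusted p = 0.342; -0.60 with the trend removed). Neither difference passed the threshold.

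The other SF3 genes did not pass in any comparison. Sf3b6, the small subunit that contacts the branch-point adenosine, read -1.02 and -0.16 at 1 week, -0.21 and -0.044 at 2 weeks and -0.23 and -0.049 at 4 weeks in normoxia. In constant hypoxia it read -0.39 and -0.21 at 1 week, 0.060 and -0.24 at 2 weeks and 0.29 and -0.50 at 4 weeks, and in intermittent hypoxia -0.31 and -0.054 at 1 week, -0.37 at 2 weeks (array A only) and -0.67 and -0.65 at 4 weeks. It was negative on all 5 intermittent hypoxia arrays with a value, with a mean of -0.40 (SE 0.14, limma adjusted p = 0.0985; -0.41 with the trend removed). Sf3b2, an SF3b subunit, read -0.27 and -0.19 at 1 week, -0.17 and -0.25 at 2 weeks and -0.14 and 0.24 at 4 weeks in normoxia. Its constant hypoxia values were -0.058 and -0.28 at 1 week, -0.52 and -0.19 at 2 weeks and -1.27 and -0.047 at 4 weeks, and those of intermittent hypoxia were -0.27 and -0.29 at 1 week, -0.41 and -0.75 at 2 weeks and -0.20 and -0.10 at 4 weeks. Its -1.27 on constant hypoxia 4 weeks A joins 3 probes that disagreed there, at 0.32, -1.65 and -2.49, and the probe at -2.49 is numbered 14949. Sf3a3, Sf3b3 and Sf3b5 had mean ratios between -0.33 and 0.39 in the 3 conditions. Sf3b5 was called in intermittent hypoxia only with the trend removed (0.26, adjusted p = 0.0389). U2af1l4, a relative of the small U2AF subunit that reads the 3′ splice site, stayed between -0.59 and 0.47 on all 18 arrays.

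Among the snRNP proteins, Snrpb, which encodes the Sm ring proteins B and B′, was the one called. In constant hypoxia its ratios were -0.62 and -0.44 at 1 week, -0.76 and -0.25 at 2 weeks and -2.65 and -0.088 at 4 weeks. Normoxia gave -0.52 and -0.28 at 1 week, -0.31 and -0.019 at 2 weeks and 0.14 and -0.030 at 4 weeks, and intermittent hypoxia gave -0.041 and -0.21 at 1 week, -0.33 and 0.060 at 2 weeks and -0.15 and -0.27 at 4 weeks. All 6 constant hypoxia values were negative but they overlapped both other conditions, and the lowest was on constant hypoxia 4 weeks A, from a probe numbered 16012. The constant hypoxia mean was -0.80 (SE 0.22, limma adjusted p = 0.0311) and -0.059 with the trend removed, and intermittent minus constant hypoxia was 0.64 (SE 0.31, adjusted p = 0.408; 0.18 with the trend removed). Without 4 weeks A these were -0.37 and 0.22, and without 4 weeks B -1.23 and 1.07. Snrpf, another Sm protein, lay on the other side in constant hypoxia, at 0.32 and 0.13 at 1 week, 0.45 and 0.63 at 2 weeks and 0.36 and 0.24 at 4 weeks, with 0.54 and -0.13 at 1 week, 0.26 at 2 weeks (array A only) and -0.18 and 0.15 at 4 weeks in normoxia and 0.38 at 1 week (array B only), 0.00020 at 2 weeks (array A only) and 0.43 and 0.79 at 4 weeks in intermittent hypoxia. Its constant hypoxia mean of 0.36 (SE 0.11, adjusted p = 0.0522) was 0.044 with the trend removed and -0.43 as deposited. Snrpd2, also of the Sm ring, read -0.24 and -0.22 at 1 week, 0.30 and 0.053 at 2 weeks and 0.54 and 0.37 at 4 weeks in normoxia. Values of -0.28 and 0.035 at 1 week, 0.18 and 0.096 at 2 weeks and 0.11 and -0.087 at 4 weeks were found in constant hypoxia, and of 0.15 and 0.071 at 1 week, 0.24 and 0.15 at 2 weeks and 0.072 and -0.092 at 4 weeks in intermittent hypoxia. Both normoxia arrays of 1 week were below 0 and both of 4 weeks above it, a change of 0.69 (SE 0.20, adjusted p = 0.257) that was 0.16 with the trend removed. The remaining Sm genes Snrpd1, Snrpe and Snrpg, the U1 protein Snrpc and the U2 proteins Snrpa1 and Snrpb2 were called in no comparison.

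The PRP factors had 3 calls in constant hypoxia. Prpf31, which bridges U4 and U6 snRNP to U5, read -0.16 and -0.40 at 1 week, -0.86 and -0.74 at 2 weeks and -1.98 and -0.54 at 4 weeks there. It read -0.81 and -0.33 at 1 week, -0.64 and 0.32 at 2 weeks and -0.58 and -0.59 at 4 weeks in normoxia and -0.27 and -0.46 at 1 week, -0.43 and -0.83 at 2 weeks and -0.32 and -0.088 at 4 weeks in intermittent hypoxia. Negative values came from 17 of the 18 arrays, and the conditions overlapped. The constant hypoxia mean was -0.78 (SE 0.16, limma adjusted p = 0.0135) and -0.11 with the trend removed. Its 2 probes correlated at 0.69 over 17 arrays, a figure that became -0.19 with the trend removed. Prpf8, the scaffold at the catalytic centre, read -0.039 and -0.19 at 1 week, -0.76 and -0.74 at 2 weeks and -1.09 and -0.039 at 4 weeks in constant hypoxia. The values were -0.16 and 0.12 at 1 week, -0.68 and -0.093 at 2 weeks and -0.76 and -0.27 at 4 weeks in normoxia, and -0.22 and -0.18 at 1 week, 0.14 and -0.42 at 2 weeks and 0.083 and 0.53 at 4 weeks in intermittent hypoxia. All 6 constant hypoxia arrays were negative, with a mean of -0.48 (SE 0.14, adjusted p = 0.0356; -0.030 with the trend removed), and overlapped normoxia. Intermittent minus constant hypoxia was 0.47 (SE 0.19, limma adjusted p = 0.368) and 0.21 with the trend removed. This difference was 0.29 without 4 weeks A and 0.64 without 4 weeks B. Prpf4, a partner of Prpf3 in the U4/U6 snRNP, read -0.14 and -0.24 at 1 week, -0.52 and -0.75 at 2 weeks and -0.34 and -0.091 at 4 weeks in constant hypoxia. In normoxia it read -0.12 and -0.016 at 1 week and -0.20 and -0.26 at 4 weeks, with no value at 2 weeks, and in intermittent hypoxia -0.43 and 0.048 at 1 week and 1.22 at 4 weeks (array A only), with no value at 2 weeks. Its constant hypoxia mean was -0.35 (SE 0.094, adjusted p = 0.0357) and -0.00020 with the trend removed. The 1.22 at 4 weeks of intermittent hypoxia stands on 1 array, and the change from 1 week, 1.41 (SE 0.28, adjusted p = 0.556; 0.99 with the trend removed), rests on that array alone.

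Prpf19, a ubiquitin ligase whose complex joins the spliceosome at activation, gave the smallest adjusted p among the changes from 1 to 4 weeks. Normoxia read -0.057 and 0.017 at 1 week, -0.13 at 2 weeks (array A only) and -1.28 and -0.94 at 4 weeks. Constant hypoxia read 0.044 and 0.083 at 1 week, -0.038 and -0.41 at 2 weeks and -0.0046 and -0.024 at 4 weeks, and intermittent hypoxia -0.43 and 0.13 at 1 week, 0.42 and 0.79 at 2 weeks and -0.0080 and -0.17 at 4 weeks. The 2 normoxia arrays of 4 weeks lay below all 15 other arrays with a value. The change from 1 to 4 weeks in normoxia was -1.09 (SE 0.24, limma adjusted p = 0.170) and did not pass; it was -0.53 with the trend removed, where the 4-week arrays, at -0.93 and -0.74, were still the lowest 2. Constant hypoxia minus normoxia was 0.36 (SE 0.15, adjusted p = 0.569), 0.29 with the trend removed and of the opposite sign as deposited (-0.45). Intermittent hypoxia minus normoxia was 0.54 (SE 0.15, adjusted p = 0.769; 0.38 with the trend removed). These 3 comparisons share the normoxia arrays.

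Prpf6, Prpf4b and Prpf38a each had one of the smallest p in a comparison without passing. Prpf6, which holds the U4/U6 and U5 snRNPs together, read 0.20 and 0.17 at 1 week, -0.62 and -0.61 at 2 weeks and -1.31 and -0.28 at 4 weeks in constant hypoxia. Its normoxia values were -0.11 and -0.40 at 1 week, -0.40 at 2 weeks (array A only) and -1.01 and -0.56 at 4 weeks, and those of intermittent hypoxia were 0.24 and -0.21 at 1 week and -0.27 and -0.58 at 4 weeks, with no value at 2 weeks. Its change from 1 to 4 weeks in constant hypoxia was -0.98 (SE 0.32, limma adjusted p = 0.503) and -0.30 with the trend removed. This change was -0.47 without 4 weeks A and -1.49 without 4 weeks B. Prpf4b, a kinase of the spliceosome, read -0.032 and 0.92 at 1 week, 0.69 and 0.13 at 2 weeks and 0.16 and 0.013 at 4 weeks in normoxia. Values of 0.083 and -0.029 at 1 week, 0.41 and 0.34 at 2 weeks and 0.0077 and 0.17 at 4 weeks were found in constant hypoxia, and of 0.24 and 0.16 at 1 week, 0.30 at 2 weeks (array A only) and 0.50 and 0.77 at 4 weeks in intermittent hypoxia. All 5 intermittent hypoxia values were above 0 (mean 0.38, SE 0.14, adjusted p = 0.101), as were 5 of 6 in normoxia (0.31, SE 0.12, adjusted p = 0.144), and both means were 0.21 with the trend removed. Prpf38a, needed for spliceosome activation, read 0.31 and 0.14 at 1 week, 0.78 at 2 weeks (array A only) and 0.18 at 4 weeks (array A only) in intermittent hypoxia. The values were 1.07 and 0.17 at 1 week, -0.27 at 2 weeks (array A only) and 0.043 at 4 weeks (array A only) in normoxia, and 0.19 and 0.18 at 1 week, 0.19 and 0.34 at 2 weeks and -0.015 and 0.22 at 4 weeks in constant hypoxia. Its intermittent hypoxia mean was 0.39 (SE 0.15, adjusted p = 0.139; 0.22 with the trend removed). Prpf3 and Prpf38b were called in no comparison.

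Of the SR proteins, Srsf5 was called in normoxia and Srsf11 in constant hypoxia. Srsf5 read 0.17 and -0.84 at 1 week, -0.90 and -1.05 at 2 weeks and -0.39 and -0.39 at 4 weeks in normoxia. In constant hypoxia it read -0.47 and -0.29 at 1 week, -0.17 and -0.75 at 2 weeks and -0.24 and -0.20 at 4 weeks, and in intermittent hypoxia -0.10 and -0.65 at 1 week, -0.86 and 0.0085 at 2 weeks and -0.21 and -0.38 at 4 weeks. It was negative on 16 of 18 arrays, and the conditions overlapped. The normoxia mean was -0.57 (SE 0.14, limma adjusted p = 0.0438) and -0.33 with the trend removed (adjusted p = 0.296). Srsf11 read 0.022 and -0.16 at 1 week, -0.37 and -0.38 at 2 weeks and -1.56 and -0.29 at 4 weeks in constant hypoxia. Its normoxia values were -0.41 and -0.36 at 1 week, -0.29 at 2 weeks (array A only) and 0.067 and -0.27 at 4 weeks, and those of intermittent hypoxia were -0.62 and -0.18 at 1 week, 0.0062 at 2 weeks (array B only) and -0.32 and -0.49 at 4 weeks. The constant hypoxia mean of -0.46 (SE 0.14, adjusted p = 0.0480; -0.21 with the trend removed) joins 3 probes that differed on the 4 weeks A array: the probe numbered 13251 read -0.091 there, and those numbered 12196 and 15472 read -1.98 and -2.61. With 1 probe for each gene its mean was 0.059, of the opposite sign. It was -0.24 without 4 weeks A and -0.67 without 4 weeks B. Srsf4 read -0.56 and -0.0062 at 1 week, 0.27 at 2 weeks (array A only) and 0.69 and 0.018 at 4 weeks in normoxia, -0.31 and -0.19 at 1 week, -0.013 and 0.22 at 2 weeks and 0.17 and -0.078 at 4 weeks in constant hypoxia and -0.11 and -0.025 at 1 week, -0.15 at 2 weeks (array A only) and -0.095 and 0.035 at 4 weeks in intermittent hypoxia, and its change from 1 to 4 weeks in normoxia was 0.64 (SE 0.27, adjusted p = 0.416; 0.56 with the trend removed). Srsf2, a protein of nuclear speckles, was negative on all 18 arrays, from -0.96 to -0.0012, without being called in any condition. With the trend removed it ran from -0.32 to 0.084, with 5 arrays above 0, and its 2 probes correlated at -0.27 as centred. Srsf6 had the most negative mean of the 51 genes in constant hypoxia, -1.12, with -3.41 on 4 weeks A from a probe numbered 15106; it was not called. Its mean was -0.27 with the trend removed, -0.59 without 4 weeks A and -1.65 without 4 weeks B. Srsf1, Srsf3 and Srsf10 had mean ratios between -0.19 and 0.24.

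The hnRNPs had 3 calls, in constant hypoxia. Hnrnpf, which binds G-rich tracts, was the positive one and read 0.26 and 0.52 at 1 week, 0.63 and 0.22 at 2 weeks and 0.74 and 0.89 at 4 weeks. Its normoxia values were 0.032 at 1 week (array B only), 0.21 at 2 weeks (array A only) and 0.38 at 4 weeks (array A only), and its intermittent hypoxia values 0.51 and -0.15 at 1 week, 0.27 at 2 weeks (array A only) and 0.074 and 0.11 at 4 weeks. All 6 constant hypoxia arrays were above 0 and overlapped the others. The mean was 0.54 (SE 0.11, limma adjusted p = 0.0170) and 0.15 with the trend removed, and on the values as deposited, without centring, it was -0.25. Intermittent minus constant hypoxia was -0.36 (SE 0.17, adjusted p = 0.411), -0.12 with the trend removed and 0.43 as deposited. Its close relative Hnrnph1, which binds like sequences, lay on the other side: -0.35 and -0.91 at 1 week, -1.14 and -0.070 at 2 weeks and -2.51 and -0.32 at 4 weeks in constant hypoxia. It read -0.35 and 0.23 at 1 week, 0.059 and 0.28 at 2 weeks and 0.50 and -0.70 at 4 weeks in normoxia and -0.092 and -0.56 at 1 week, -0.32 and -0.72 at 2 weeks and -0.41 and 0.040 at 4 weeks in intermittent hypoxia. Its constant hypoxia mean was -0.88 (SE 0.24, adjusted p = 0.0294; -0.13 with the trend removed) and constant hypoxia minus normoxia -0.89 (SE 0.33, adjusted p = 0.548; -0.37 with the trend removed); its probe is numbered 15516. Without 4 weeks A both were -0.52, and without 4 weeks B both were -1.25. Hnrnpa0, which binds AU-rich RNA, read 0.0055 and -0.32 at 1 week, -0.37 and -0.45 at 2 weeks and -0.27 and -0.76 at 4 weeks in constant hypoxia. Values of -0.62 and -0.11 at 1 week, -0.045 and 0.16 at 2 weeks and -0.76 and -0.32 at 4 weeks were found in normoxia, and of -0.036 and -0.23 at 1 week, 0.085 at 2 weeks (array A only) and 0.14 and -0.36 at 4 weeks in intermittent hypoxia. Its constant hypoxia mean was -0.36 (SE 0.11, adjusted p = 0.0484), and 0.079, of the opposite sign, with the trend removed.

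Hnrnpa1, an abundant repressor of exon inclusion, had a narrow range in constant hypoxia and was called in no comparison. The 6 arrays read 0.25 and 0.34 at 1 week, 0.43 and 0.32 at 2 weeks and 0.31 and 0.26 at 4 weeks, an SD of 0.067. Normoxia read 0.064 and -0.25 at 1 week, -0.20 and -0.43 at 2 weeks and 0.52 and 0.16 at 4 weeks, and intermittent hypoxia 0.15 and -0.071 at 1 week, -0.38 and 0.74 at 2 weeks and -0.30 and -0.26 at 4 weeks, with SDs of 0.34 and 0.42. The constant hypoxia values lay inside the ranges of both other conditions. Constant hypoxia minus normoxia was 0.34 (SE 0.17, limma adjusted p = 0.582; 0.29 with the trend removed), and intermittent minus constant hypoxia was -0.34 (SE 0.17, adjusted p = 0.416; -0.24 with the trend removed). As deposited, the 2 differences had the opposite signs, -0.47 and 0.45, so that their direction depends on the centring. Its 3 probes gave like values, with a median correlation between probes of 0.67 over 18 arrays and 0.82 with the trend removed. The narrow range was not particular to Hnrnpa1. Hnrnpc had an SD of 0.063 in constant hypoxia, 0.18 in normoxia and 0.54 in intermittent hypoxia. All 4 of its probes had a value on each constant hypoxia array. On intermittent hypoxia 2 weeks B, an array uneven along the probe numbers, its -1.20 came from the probe numbered 4923 alone. That value was -0.10 with the trend removed.

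**Figure D4:**
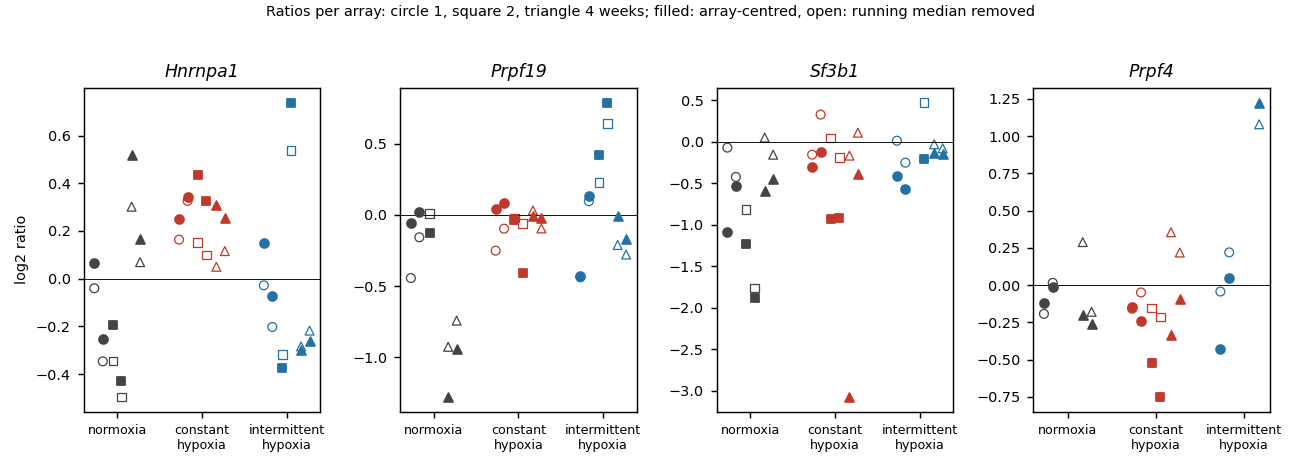
Log2 ratio of Hnrnpa1, Prpf19, Sf3b1 and Prpf4 on each array by condition; circles, squares and triangles are 1, 2 and 4 weeks, filled symbols are array-centred and open symbols have the running median removed. The vertical scale differs between genes; the filled Sf3b1 triangle at -3.07 is constant hypoxia 4 weeks A, whose open symbol lies at -0.17.

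Hnrnpd, Hnrnpr and Hnrnpab were named by the rule for the smallest p in a comparison and did not pass. Hnrnpd, which binds AU-rich RNA, read -0.54 and -0.53 at 1 week, -0.24 at 2 weeks (array A only) and 0.47 and 0.073 at 4 weeks in intermittent hypoxia. The values were 0.12 and -0.095 at 1 week, -0.47 and 0.20 at 2 weeks and -0.35 and -0.30 at 4 weeks in normoxia, and 0.24 and -0.094 at 1 week, -0.50 and -0.50 at 2 weeks and -0.97 and -0.22 at 4 weeks in constant hypoxia. Its change from 1 to 4 weeks of intermittent hypoxia was 0.81 (SE 0.29, limma adjusted p = 1.00; 0.45 with the trend removed). Hnrnpr read 0.017 and -0.29 at 1 week, -0.013 and -1.18 at 2 weeks and -0.21 and -0.57 at 4 weeks in intermittent hypoxia. In normoxia it read -0.36 and -0.052 at 1 week, -0.19 and -0.74 at 2 weeks and -0.36 at 4 weeks (array A only), and in constant hypoxia 0.0057 and 0.13 at 1 week, -0.37 and -0.17 at 2 weeks and 0.17 and -0.17 at 4 weeks. Its intermittent hypoxia mean was -0.37 (SE 0.14, adjusted p = 0.108; -0.24 with the trend removed), with the lowest value on 2 weeks B. Hnrnpab, a relative of Hnrnpd, read -0.030 and -0.44 at 1 week, -0.23 and 0.068 at 2 weeks and 0.36 and 0.048 at 4 weeks in constant hypoxia. Its normoxia values were -0.062 and -0.077 at 1 week, -0.0041 and -0.0077 at 2 weeks and 0.14 and 0.47 at 4 weeks, and those of intermittent hypoxia were -0.16 and 0.12 at 1 week, -0.063 and -0.34 at 2 weeks and -0.040 and -0.37 at 4 weeks. Its 2 noted differences were 0.44 for 4 weeks minus 1 week of constant hypoxia (SE 0.23, adjusted p = 0.586; 0.33 with the trend removed) and -0.22 for intermittent hypoxia minus normoxia (SE 0.14, adjusted p = 0.983; -0.10 with the trend removed). Hnrnpul2 was called in intermittent hypoxia only with the trend removed (0.42, limma adjusted p = 0.0439). That mean leaned on 2 weeks B, the only 2-week array with a value, at 1.17 with the trend removed and 0.50 as centred. The other intermittent hypoxia arrays with a value lay between -0.011 and 0.15 with the trend removed. The other 9 hnRNPs, which include Hnrnpa2b1, Hnrnpa3, Hnrnpc, Hnrnpk, Hnrnpl, Hnrnpm and Hnrnpu, were called in no comparison.

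Between conditions, limma called 0 of 48 genes for constant hypoxia minus normoxia (0% of 7344 features), 0 of 45 for intermittent hypoxia minus normoxia (0% of 6317) and 0 of 45 for intermittent minus constant hypoxia (0.0299% of 6692). At an unadjusted p under 0.05 there were 3, 1 and 1 genes (6.25%, 2.22% and 2.22%), against 8.61%, 4.69% and 12.6% of all features. The median differences of the genes were -0.011, 0.041 and 0.038, against -0.027, 0.011 and 0.045 over all features. With the trend removed they were 0.073, 0.052 and -0.029, against 0.0056, 0.0041 and -0.0064. Constant hypoxia minus normoxia was positive for 24 of 48 genes as centred, against 45.3% of features. With the trend removed it was positive for 32 of 48, against 51.3%. On the values as deposited, which keep the arrays' different medians, 48 genes were called in the first (96.9% of features) and 45 in the last (94.2%). With constant hypoxia 4 weeks B left out, 2 genes were called in the first (8.65%) and 6 in the last (11.6%). The median standard error of a gene's difference was 0.18 in all 3, which is of the size of most of the differences: their median size was 0.13, 0.10 and 0.12. By family, constant hypoxia minus normoxia was positive for 10 of 17 hnRNPs and 3 of 8 PRP factors, against 45.3% of all features. With the trend removed these counts were 13 and 5, against 51.3%. Intermittent hypoxia minus normoxia was positive for 6 of 7 PRP factors and 6 of 8 snRNP proteins, against 52.1%, and for 4 and 5 of them with the trend removed, against 51%. None of these genes passed the threshold.

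For age, limma called 0 genes for 4 weeks minus 1 week in normoxia (of 50; 0% of 8792 features), in constant hypoxia (of 51; 0% of 9490) and in intermittent hypoxia (of 49; 0% of 8413), with 5, 5 and 2 genes at an unadjusted p under 0.05 (10%, 9.8% and 4.08%, against 10.8%, 9.29% and 4.17% of all features). The difference of this change from that in normoxia was called for 0 of 50 genes in constant hypoxia (0% of 8615) and 0 of 49 in intermittent hypoxia (0% of 7916), with 4 and 5 at an unadjusted p under 0.05 (8% and 10.2%, against 5.06% and 9.55%). As centred, this difference was negative for 32 of 50 genes in constant hypoxia, against 51.5% of all features. Its median there was -0.26 against -0.018, and the low end of constant hypoxia 4 weeks A enters it. The change itself was negative for 38 of 51 genes in constant hypoxia, against 55% of all features, with a median of -0.17 against -0.040. With the trend removed these were 29 of 51 against 51.8%, and -0.014 against -0.0095. That median includes the low end of constant hypoxia 4 weeks A. With 4 weeks B left out, 9 genes were called in that comparison (12.8% of features) and 5 in its difference from normoxia (8.08%).

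**Figure D5:**
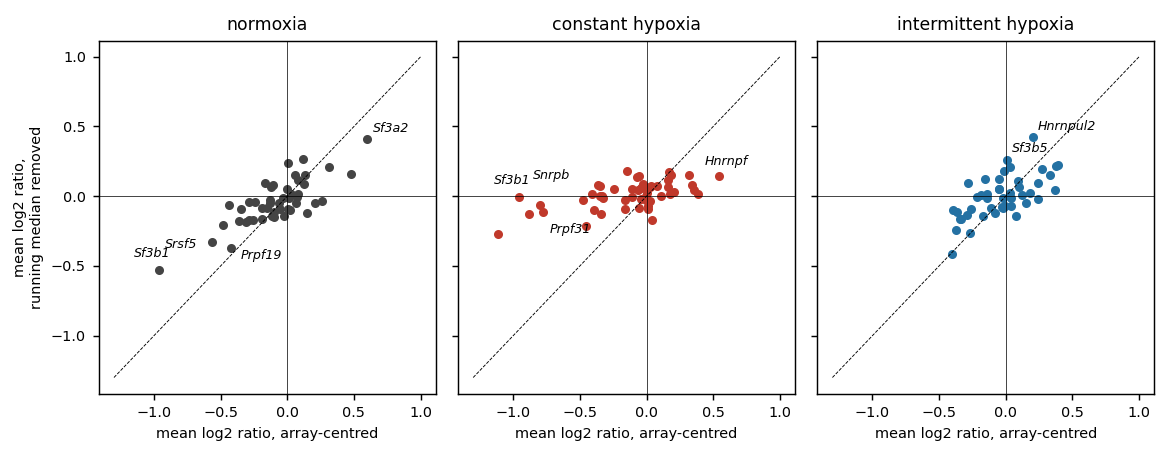
Mean log2 ratio of each gene after centring (horizontal) against the same mean with the running median of neighbouring probes removed (vertical), by condition; the dashed line marks equal values. In constant hypoxia the vertical spread shrinks to at most 0.27 in size, while Sf3b1 in normoxia keeps -0.53 of its -0.96.

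Probes of one gene seldom gave like values. Among the 17 genes that have more than 1 probe, correlations between probes over the arrays had a median of -0.11, with 10 genes below 0 and 3 above 0.5 (Hnrnpa1, Prpf31 and Srsf11). With the trend removed the median was 0.049 and 8 were below 0. These points share arrays, and cDNA probes of closely related hnRNP and SR genes can bind one another's transcripts. For 34 genes a single probe carries the value.

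Other genes of the splicing pathway were taken from a list of 131 spliceosome components, helicases, kinases and regulators. They had calls in the mean ratios of all 3 conditions and in none of the differences between conditions or ages. Of the list, 96 had values on 9 or more arrays. In constant hypoxia 14 of 96 (14.6%) were called, 4 positive and 10 negative, near the 14% of all features. The most negative mean among them was that of Tardbp, an RNA-binding repressor of cryptic exons, at -1.10 (SE 0.26, limma adjusted p = 0.0235). It was -1.24 with the trend removed (adjusted p = 0.0584). The smallest adjusted p was that of the kinase Clk4, which phosphorylates SR proteins, at -0.49 (SE 0.090, adjusted p = 0.0106) and -0.18 with the trend removed. Among the positive calls it was that of Syf2, at 0.42 (SE 0.086, adjusted p = 0.0135) and 0.16 with the trend removed. In normoxia 2 of 88 (2.27%) were called, against 3.31% of all features. Both were negative: Aqr, a helicase of the spliceosome, at -0.46 and Ik at -0.53 (-0.35 and -0.31 with the trend removed). In intermittent hypoxia 5 of 84 (5.95%) were called, 3 positive and 2 negative, against 7.6% of all features. Among them were the U2 snRNP-associated Htatsf1 at 0.98 (SE 0.13, limma adjusted p = 0.00586) and Aqr at -0.50 (SE 0.10, adjusted p = 0.0176). With the trend removed Htatsf1 was 0.64 and still called (adjusted p = 0.00708) and Aqr was -0.20. The counts over the list were then 0 of 96 in constant hypoxia (0.211% of features), 1 of 88 in normoxia (2.53%) and 3 of 84 in intermittent hypoxia (3.25%).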

How the data were processed

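The 18 arrays hybridised 60 ug of total kidney RNA per channel, labelled by direct incorporation of Cy5 or Cy3, per the labels' protocols. Each deposited value is a log2 ratio, 1 for every probe on an array. How the authors corrected, filtered and normalized the spots, and which channel is the numerator, was not given in the sources used here. Base 2 was inferred from 500 values per array, tested as ratios of whole numbers (denominators up to 600, relative tolerance 3e-09). In base 2, 22.4% to 46.8% were such ratios on the constant hypoxia arrays and 64.6% to 79.2% on the others. At most 0.4% were in base e and 1.4% in base 10. Only ratios were used, so the intensity behind a value is unknown and no depth can be given; the number of arrays limits the precision.

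Probes were named from the platform annotation (9604 with 1 symbol, 213 with several, 6311 with none); all 80 probes described matched RefSeq (GRCm38.p6) by gene ID, and probes are given no coordinates because the values come without a build. Probes of one symbol were averaged, features measured on 9 or more arrays were kept (9675), and the median of an array was subtracted from its values. limma 3.58.1 in R 4.3.3 fitted 9 group means to all 18 arrays with eBayes, with Benjamini-Hochberg adjustment across every feature whose contrast could be estimated (11 comparisons, threshold 0.05, 2-sided). The script was tested on simulated data. The arrays of a group held different animals per the labels, so p-values measure the spread between pairs of animals together with technical error.

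The members and lists were chosen with earlier results of these data known. Array values are given for each gene past the threshold in a comparison and for the 2 genes of smallest p in each direction of each ratio, condition difference and change with age; Hnrnpul2, Sf3b5, Srsf2 and Srsf6 were singled out after their values were seen. The alternatives were values as deposited, another centring, arrays scaled to 1 spread, the running median removed, other minimum numbers of arrays, other rules for several probes, only the arrays compared, the letters A and B as a block, and arrays left out. Leaving out constant hypoxia 4 weeks A with intermittent hypoxia 2 weeks B, alone or with the running median removed, and keeping only probes numbered up to 14000 were chosen after seeing the data.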

Additional observations from a re-analysis of the deposited data

How the results depend on the processing

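The number of arrays, the trend along the probe numbers and the footing of the constant hypoxia arrays limit these results. For the 3 genes called in normoxia, the count was 1 on the values as deposited (2.67% of all features called), 1 with the running median removed (2.53%), 1 with the letters A and B as a replicate block (2.47%), 8 without the 2 arrays whose labels disagree (11.7%) and 8 (11.7%) without the 2 arrays most uneven along the probe numbers (constant hypoxia 4 weeks A, intermittent hypoxia 2 weeks B). For the 9 in constant hypoxia it was 50 as deposited (99%), 14 with arrays scaled to 1 spread (19.2%), 0 with the running median removed (0.211%), 0 with only the arrays compared (0.126%), 0 with the running median removed and the 2 uneven arrays left out (0.0852%), and 5 of 44 with probes numbered up to 14000 (10.7%). For the 0 in intermittent hypoxia it was 1 scaled (7.95%), 2 with the running median removed (3.25%), 7 without the arrays whose labels disagree (27.7%), 2 without the 2 uneven arrays (5.76%), 1 with the running median removed as well (2.6%), and 2 with probes up to 14000 (12.3%). As deposited, 48 genes were called in constant hypoxia minus normoxia (96.9%) and 45 in intermittent minus constant hypoxia (94.2%), in place of 0. The other causes were not tested; the values as deposited keep the arrays' different medians.

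With any one array left out, the count ran from 0 to 6 in normoxia, 0 to 17 in constant hypoxia, 0 to 4 in intermittent hypoxia, 0 to 2 for constant hypoxia minus normoxia, 0 to 6 for intermittent minus constant hypoxia, 0 to 9 for 4 weeks minus 1 week in constant hypoxia and 0 to 5 for its difference from normoxia; the other 4 comparisons stayed at 0. The highest counts of the last 4 of these, and the 17, came without constant hypoxia 4 weeks B, where 8.65%, 11.6%, 12.8%, 8.08% and 24% of all features were called.

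Signs turned as follows. As deposited, Hnrnpf was -0.25 and Snrpf -0.43 in constant hypoxia, Hnrnpa1 -0.47 and Prpf19 -0.45 in constant hypoxia minus normoxia, and Hnrnpa1 0.45 and Hnrnpf 0.43 in intermittent minus constant hypoxia. In constant hypoxia, Hnrnpa0 was 0.079 with the running median removed and Srsf11 0.059 with 1 probe per gene. With the running median removed and the 2 uneven arrays left out, Prpf8 was 0.0013 and Sf3b1 0.041 in constant hypoxia, and Sf3b1 0.023 for its 4 weeks minus 1 week. No sign of a named gene turned with any one array left out.

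The letters do not pair arrays across groups: over 36 pairs of groups the A minus B differences correlated between -0.35 and 0.42, with a median of 0.01 and 7 above 0.1. With the block the count changed by over 1.5 times in normoxia only.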

Other observations

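Over all arrays, the 1270 pairs of splicing genes had a median correlation of -0.014, and pairs within a family one of -0.0068. A correlation above 0.8 was found for 18 pairs, 12 of them with Srsf6, which had 9 arrays. Pairs were counted only where they shared 9 or more arrays. Leaving out constant hypoxia 4 weeks A therefore dropped every pair with Srsf6, and that of Snrpa1 with Snrpf, whatever its correlation. Of the 1221 pairs then left, 4 were above 0.8, all among Hnrnpa1, Hnrnpa2b1, Hnrnpdl and Srsf1. With intermittent hypoxia 2 weeks B left out too, 1 of 1221 pairs was. Hnrnpa2b1 and Hnrnpdl, which belong to a related group of hnRNPs, correlated at 0.89 over 18 arrays and 0.87 over the remaining 17. The points share arrays and the trend along the probe numbers, and these values are a description.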
